A study of Mus musculus with 6 samples.

Results

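The EGF family comprises growth factors that are made as membrane-anchored precursors and the ErbB receptor tyrosine kinases they bind. Soluble ligand is released when a metalloprotease cuts the precursor, and bound receptors pair with one another and signal through the RAS-ERK and PI3K-AKT pathways. Amphiregulin, epiregulin, epigen, HB-EGF, TGF-alpha and betacellulin bind EGFR, some of them ERBB4 as well, whereas neuregulin 1 binds ERBB3 and ERBB4. ERBB2 has no known soluble ligand and acts as a partner of the other receptors, and the pathway is known for its role in mammary epithelium and breast cancer.

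10 genes of this family were examined, namely the EGFR ligands Areg, Ereg, Epgn, Hbegf, Tgfa and Btc, the neuregulin Nrg1 and the receptors Egfr, Erbb2 and Erbb3. They were taken by symbol from the 15973 protein-coding genes that the authors had compared, within a count table of 53379 gene IDs, and all 10 were found. Their mRNA was measured by RNA-Seq of sorted 4T1-T cells, a sub-clone of the mouse mammary carcinoma line 4T1 competent for vasculogenic mimicry (VM), the forming of vessel-like channels by tumor cells, so that all libraries come from 1 clonal line. Every culture was serum-starved overnight in Opti-Mem with 0.3% BSA, given Alexa-488 acetylated low-density lipoprotein (acLDL) at 10 ug/mL for 4 h, washed, and returned to complete growth medium with 10% FBS for 1 h before sorting. The 25% of cells with the most fluorescence formed the acLDL-high population and the 25% with the least the acLDL-low population. The experiment was run on 3 occasions, which the replicate numbers mark, so that each number pairs 1 acLDL-high with 1 acLDL-low library (n = 3 pairs). No untreated culture enters the comparison, and the labels name no genotype, age or other treatment.

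The 6 libraries held between 70263372 and 94216786 counts. Occasion stood apart from uptake in the whole data, since the first principal component of log2 CPM (counts scaled by TMM to a common library total) took 58.7% of the variance and separated both libraries of occasion 2 from the other 4. Epithelial identity was present, with Krt18, a simple-epithelium keratin, at 1128 CPM and Cdh1, the epithelial cadherin, at 850 CPM over the 6 libraries. Among the other keratins listed, Krt14 averaged 98.6 CPM, from 31.1 to 249 CPM, while Krt5 had 0 counts. Of 8 macrophage markers, 7 averaged below 1 CPM over the 6 libraries, Adgre1 and C1qa had 0 counts, and the summed level of the list ranged from 7.91 to 10.8 CPM in acLDL-low and from 6.89 to 8.27 CPM in acLDL-high libraries, most of it Cd68. Of 8 endothelial markers, 7 averaged below 1 CPM, Emcn and Flt4 had 0 counts, and the summed levels were 1.56 to 2.64 and 1.51 to 2.32 CPM. Of 8 fibroblast markers, 7 averaged below 1 CPM, Lum and Thy1 had 0 counts, and the sums of 29.2 to 41.4 and 29.9 to 43.6 CPM were nearly all Pdgfra. None of the tested markers of these 3 cell types had an adjusted p under 0.05 between the populations in edgeR's quasi-likelihood test. Since these are bulk samples, fewer cells that express a gene and less RNA per cell cannot be told apart.

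4 of the 6 EGFR ligand genes lie side by side on chromosome 5 (GRCm38, positions from GENCODE M21). Epgn spans chr5:91027464-91035215, Ereg chr5:91074622-91093646 and Areg chr5:91139599-91148432, all on the plus strand, and Btc chr5:91357261-91402994 on the minus strand. This stretch covers 376 kb, and none of the other genes in the deposited comparison lies in it. Tgfa is on chromosome 6 (86195223 to 86275719), Nrg1 on chromosome 8 (31814551 to 32884029), Erbb3 on chromosome 10 (128567523 to 128589652), and Egfr (16752203 to 16918158) and Erbb2 (98412470 to 98437716) on chromosome 11. Exons of Nrg1, Ereg, Tgfa and Erbb2 overlap a gene of the opposite strand over 4.66%, 3.42%, 1.82% and 0.17% of their length. The strand setting of the counting is not given in the sources used here, so reads of those stretches carry that uncertainty.

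The sequences before the start sites of Areg and Btc are shown because both genes were higher in acLDL-high cells and lie in the same ligand stretch. These are the 250 bases upstream of the RefSeq start, 5′ to 3′ along the gene (GRCm38.p6, chr5:91139349-91139598 plus strand for Areg and chr5:91402995-91403244 minus strand for Btc), with capitals marking matches to any of the 4 motifs searched on both strands.
Areg: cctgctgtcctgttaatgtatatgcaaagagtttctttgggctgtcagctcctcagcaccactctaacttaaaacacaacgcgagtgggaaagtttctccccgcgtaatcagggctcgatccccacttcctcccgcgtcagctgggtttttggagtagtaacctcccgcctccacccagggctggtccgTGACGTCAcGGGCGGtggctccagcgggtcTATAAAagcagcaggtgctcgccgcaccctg
Btc: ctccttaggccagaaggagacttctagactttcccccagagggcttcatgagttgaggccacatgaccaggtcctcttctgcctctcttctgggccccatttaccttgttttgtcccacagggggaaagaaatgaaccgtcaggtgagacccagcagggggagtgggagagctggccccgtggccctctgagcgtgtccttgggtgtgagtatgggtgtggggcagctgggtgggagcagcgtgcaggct
The Areg stretch holds 1 cAMP response element (TGACGTCA, 61 to 54 bases before the start), followed by 1 GC box (GGGCGG, 52 to 47 bases before) and 1 TATA box (TATAAA, 31 to 26 bases before). The cAMP response element is the classical binding site of CREB and ATF factors, and 1.55% of the 32851 upstream stretches of this length hold its letters, against 32.7% for the GC box, 12.4% for TATAAA and 6.75% for the AP-1 element TGANTCA. None of these letters is in the Btc stretch. 6 of the 10 genes have an entry in the RefSeq promoter table, and among the other 4 of these Epgn holds 1 TATAAA, Tgfa 2 GC boxes, Egfr 1 GC box and Erbb2 no match. A match here is a description of letters and not of a bound site.

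Levels were compared between genes only per length, as CPM per kb of annotated exon. Areg was the highest of the family at 258 ± 62.2 CPM per kb in acLDL-low and 329 ± 86.1 in acLDL-high cells (SD, n = 3). Hbegf followed at 71.6 ± 16.0 and 85.5 ± 22.5 CPM per kb, and Tgfa at 23.3 ± 3.46 and 24.5 ± 4.33. These 3 ligands were ordered the same way in 6 of 6 libraries, with mean levels 3.74-fold apart for Areg over Hbegf and 3.29-fold for Hbegf over Tgfa. Among receptors, Erbb2 was highest at 8.43 ± 0.595 and 8.20 ± 0.743 CPM per kb, Erbb3 lay at 3.36 ± 0.920 and 3.70 ± 1.07, and Egfr at 0.248 ± 0.0541 and 0.284 ± 0.0753. The receptor that these abundant ligands bind was therefore the lowest of the 3 receptors, and each of Areg, Hbegf and Tgfa exceeded it in every library.

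Btc, at 6.42 ± 3.60 and 7.88 ± 4.64 CPM per kb, could not be separated from Erbb2, its neighbour in the order, since Erbb2 was the higher of the pair in 4 of 6 libraries. The same holds for Erbb3 over Nrg1 (2.42 ± 1.21 and 2.69 ± 1.41 CPM per kb) and for Epgn (0.376 ± 0.159 and 0.561 ± 0.203) over Egfr, each ordered so in 4 of 6 libraries. Ereg was the lowest, at 0.0122 ± 0.00890 and 0.0109 ± 0.0135 CPM per kb. With the longest transcript in place of the union of exons, Hbegf averaged 131 CPM per kb over the 6 libraries, in place of 78.5, and Areg exceeded it 2.23-fold. Nrg1 then averaged 4.89 CPM per kb over the 6 libraries, in place of 2.56, and moved above Erbb3 at 3.53.

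**Figure D1:**
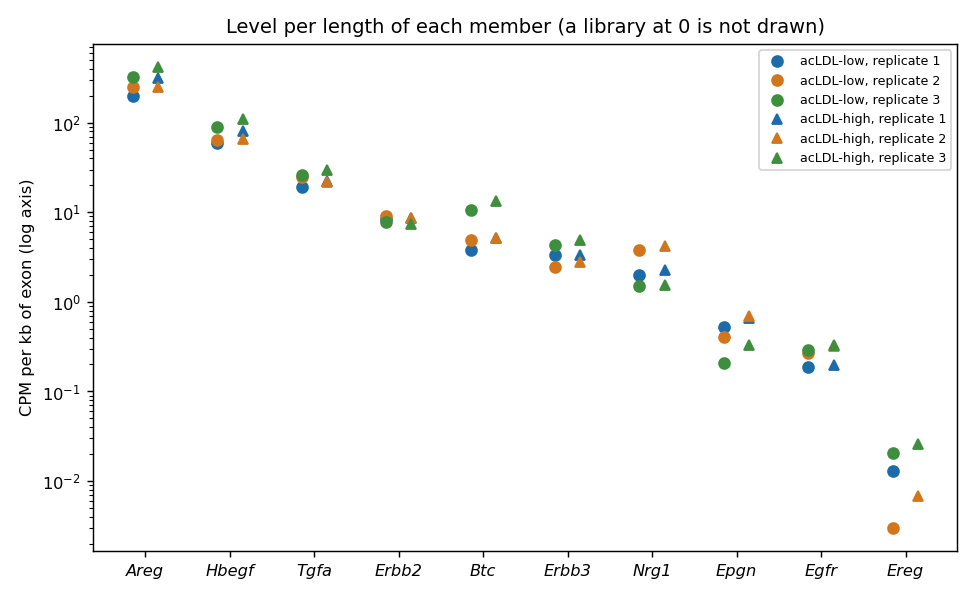
CPM per kb of annotated exon for each of the 10 genes on a log axis, with 1 point per library (circles acLDL-low, triangles acLDL-high, colours replicates 1 to 3). Areg, Hbegf and Tgfa stand above the receptors in all 6 libraries, and Ereg, at 0 in 1 library that is not drawn, lies at the bottom.

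As shares of the summed level per kb of the 6 EGFR ligands, Areg took 71.7% ± 0.928 in acLDL-low and 73.5% ± 1.06 in acLDL-high cells, Hbegf 19.9% ± 1.10 and 19.1% ± 0.283, and Tgfa 6.56% ± 0.748 and 5.58% ± 0.695 (SD, n = 3). The 3 together made up between 97.6% and 98.6% in every library. With the longest transcript as length, Areg took 61.6% and 63.6% and Hbegf 28.6% and 27.7%. The shares thus depend on the length used, while the order Areg, Hbegf, Tgfa was the same with both.

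The comparison of acLDL-high with acLDL-low cells asks whether the tumor cells that take up most lipoprotein, a trait used to identify endothelial-like cells, differ in expression of this family. In the main fit, Areg, Hbegf and Btc were called as higher in acLDL-high cells, by 1.27-, 1.19- and 1.22-fold, and no family gene was called as lower. These calls depended on the pairs and the fit. With replicate 1 or replicate 3 left out, or without the replicate block, 0 family genes were called, and DESeq2 called only Btc. Of the 10 genes, 9 passed edgeR's filter on low counts, and 3 of these 9 had an adjusted p under 0.05 (quasi-likelihood test blocked on the replicate number, Benjamini-Hochberg over 12572 genes). Over all genes tested 4.75% were called, 3.43% as higher and 1.32% as lower in acLDL-high cells. At an unadjusted p under 0.05 there were 6 of 9, against 19.4% of all genes. The log2 fold change was above 0 for 8 of the 9 genes, against 50.6% of all genes. In all 3 pairs, 6 of the 9 were higher in acLDL-high cells, against 20.9% of all genes, and 0 were lower, against 19.4%. The median log2 fold change was 0.19 over the 9 genes and 0.0017 over all genes tested. The 10 genes were chosen with earlier results of these data known. Some of them also vary together over the 6 libraries, as do Areg and Hbegf (Pearson correlation of log2 CPM of 0.98). The shares set against all genes are therefore a description only. Without pairing the libraries, acLDL-high and acLDL-low values overlapped for 9 of 9 genes. Over all genes tested 2.86% did not overlap, so this count lies close to the background.

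**Figure D2:**
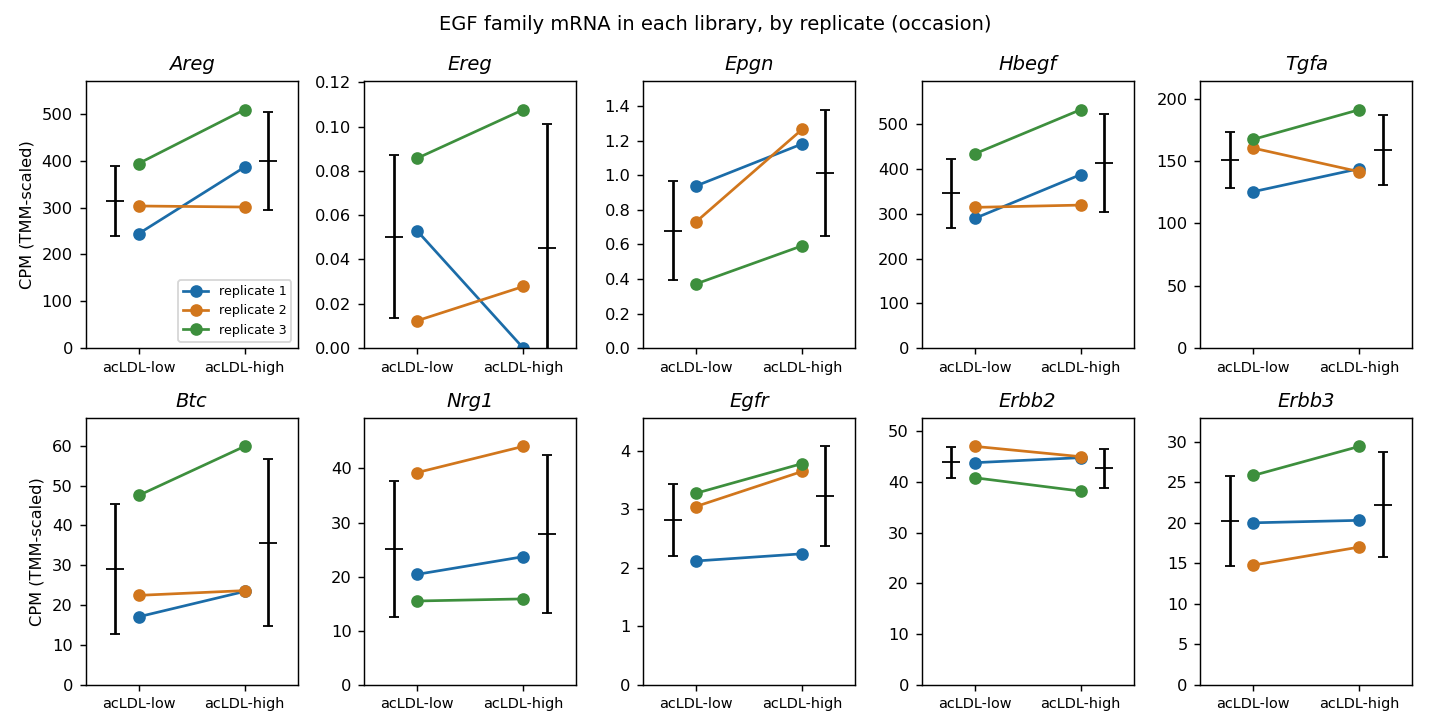
CPM of each gene in the 6 libraries, with a line joining the acLDL-low and the acLDL-high library of 1 replicate and black bars giving mean and SD (n = 3), that of Ereg in acLDL-high cells ending at the axis. Areg, Hbegf and Btc rise along the lines of replicates 1 and 3 and are nearly flat along that of replicate 2, and the spread between replicates exceeds the rise.

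Areg encodes amphiregulin, a heparin-binding EGFR ligand needed for mammary duct outgrowth. It was at 244, 304 and 394 CPM in acLDL-low replicates 1, 2 and 3 and at 387, 301 and 509 CPM in the matching acLDL-high libraries. The acLDL-high library was the higher of pairs 1 and 3 and level with its partner in pair 2. The fitted log2 difference was 0.34 ± 0.09 (SE; edgeR adjusted p = 0.0449), a 1.27-fold difference with a 95% interval of 1.11 to 1.44, and the differences within pairs 1, 2 and 3 were 0.66, -0.01 and 0.37 on the log2 scale. The call depended on the pairs included. Fits that leave out 1 pair, here and below, rest more on the variance moderated towards other genes. Their small adjusted p therefore do not measure replication. Without replicate 1 the log2 fold change was 0.18 (adjusted p = 0.113), without replicate 3 it was 0.33 (0.292), and without replicate 2 it was 0.51 (9.32e-19), in a range of adjusted p from 9.32e-19 to 1 over 9 alternatives. DESeq2 with the replicate in its design gave the same size, 0.34, with an adjusted p of 0.504.

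Hbegf, on chromosome 18, encodes heparin-binding EGF-like growth factor, which binds EGFR and ERBB4 and serves in its membrane form as the receptor of diphtheria toxin in primates. It was at 290, 314 and 434 CPM in acLDL-low replicates 1, 2 and 3 and at 388, 319 and 533 CPM in acLDL-high cells. All 3 pairs had the higher value in acLDL-high cells, but the difference in pair 2 was 0.02 on the log2 scale, against 0.42 and 0.30 in pairs 1 and 3. The fitted log2 difference was 0.25 ± 0.06 (SE; edgeR adjusted p = 0.0407), or 1.19-fold with a 95% interval of 1.08 to 1.30. It was 0.16 (adjusted p = 0.139) without replicate 1, 0.22 (0.278) without replicate 3 and 0.36 (4.93e-09) without replicate 2, and DESeq2 gave 0.25 with an adjusted p of 0.412. Over 9 alternatives the adjusted p ran from 4.93e-09 to 1.

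Btc encodes betacellulin, which binds EGFR and ERBB4. Its levels in replicates 1, 2 and 3 were 17.1, 22.4 and 47.5 CPM in acLDL-low and 23.4, 23.6 and 59.8 CPM in acLDL-high cells. The acLDL-high library was the higher in each pair, while the libraries of occasion 3 exceeded all others in both populations. Its fitted log2 difference was 0.29 ± 0.07 (SE; edgeR adjusted p = 0.0264), or 1.22-fold with a 95% interval of 1.11 to 1.35, and the pairs gave 0.46, 0.07 and 0.33. Btc was the family gene with the smallest p and the one that DESeq2 also called (0.29, adjusted p = 0.0158). Leaving out replicate 1 gave 0.21 (adjusted p = 0.0513), leaving out replicate 3 gave 0.27 (0.266) and leaving out replicate 2 gave 0.39 (9.44e-07), within a range of 9.44e-07 to 1 over 9 alternatives.

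Tgfa encodes TGF-alpha, an EGFR ligand closely related to EGF. It lay between 126 and 168 CPM in acLDL-low and between 142 and 191 CPM in acLDL-high cells. Pairs 1 and 3 had the higher value in acLDL-high cells (log2 differences of 0.20 and 0.19) and pair 2 the lower (-0.18). A fitted log2 difference of 0.07 ± 0.06 (SE; edgeR adjusted p = 0.601) had a 95% interval from 0.95-fold to 1.15-fold. Without replicate 2 it was 0.19, with an adjusted p of 0.0103, within a range of 0.0103 to 1 over 9 alternatives.

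Epgn and Ereg were the scarce ligands. Epgn, which encodes epigen, an EGFR ligand of low affinity, was at 0.938, 0.730 and 0.371 CPM in acLDL-low and at 1.18, 1.27 and 0.592 CPM in acLDL-high replicates 1, 2 and 3. Every pair had the higher value in acLDL-high cells (log2 differences of 0.32, 0.77 and 0.64), from 26 to 94 counts per library. Its log2 fold change of 0.58 was the largest of the 9 tested genes, but with a standard error of 0.22 the adjusted p was 0.166 (edgeR) and the 95% interval ran from 1.08-fold to 2.08-fold. Ereg, which encodes epiregulin, had 4, 1 and 6 counts in acLDL-low and 0, 2 and 10 counts in acLDL-high libraries. It failed the filter on low counts and was not tested, and no fold is given because both populations lie near the floor of 3 counts, which is between 0.0323 and 0.0429 CPM and covers counting error only.

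Nrg1 encodes neuregulin 1, the ligand of ERBB3 and ERBB4. It was at 20.4, 39.3 and 15.5 CPM in acLDL-low and at 23.7, 44.1 and 15.9 CPM in acLDL-high replicates 1, 2 and 3, so that occasion 2 held the highest values of both populations. The acLDL-high library was the higher in each pair, by 0.21, 0.17 and 0.04 on the log2 scale. The fitted log2 difference was 0.14 ± 0.06 (SE; edgeR adjusted p = 0.178), with a 95% interval from 1.02-fold to 1.20-fold.

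No receptor passed the test. Erbb3, the kinase-impaired receptor that binds neuregulins, was at 20.0, 14.8 and 25.8 CPM in acLDL-low and at 20.3, 17.0 and 29.4 CPM in acLDL-high cells, with the higher value in acLDL-high cells in each pair. The fit gave a log2 difference of 0.14 ± 0.06 (SE; edgeR adjusted p = 0.227). Egfr ranged from 2.11 to 3.27 CPM in acLDL-low and from 2.24 to 3.78 CPM in acLDL-high cells, with 160 to 351 counts per library, and was also higher in all 3 pairs. Its fitted log2 difference was 0.19 ± 0.12 (SE; edgeR adjusted p = 0.429), with a 95% interval from 0.95-fold to 1.36-fold. Erbb2 ranged from 40.9 to 47.1 CPM in acLDL-low and from 38.2 to 45.0 CPM in acLDL-high cells. It had the narrowest interval of the 9 genes, 0.90-fold to 1.04-fold, around a fitted log2 difference of -0.04 ± 0.05 (SE; edgeR adjusted p = 0.682).

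**Figure D3:**
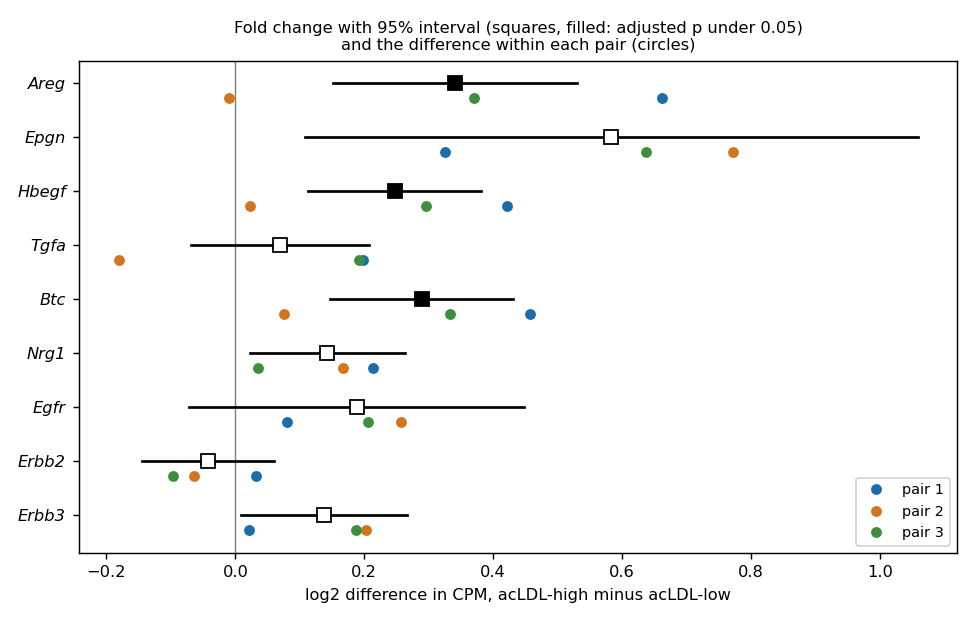
Log2 fold change of the 9 tested genes (squares, filled where the adjusted p is under 0.05) with 95% interval, and the difference within each pair (circles), acLDL-high minus acLDL-low. Pair 2 gives the smallest difference for Areg, Hbegf, Tgfa and Btc and the largest for Epgn, Egfr and Erbb3.

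The pairs did not contribute alike. The median difference of the 5 tested EGFR ligands was 0.42, 0.02 and 0.33 on the log2 scale in pairs 1, 2 and 3, and 5, 3 and 5 of them were higher in acLDL-high cells. For the 3 receptors the medians were 0.03, 0.20 and 0.19. Over all genes tested the medians of the pairs were 0.02, -0.01 and -0.00022. Whether uptake acts differently on separate occasions was not tested, since each occasion holds 1 library of each population.

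Expression of the family also differed between occasions. In the test of occasion with population as covariate, 9 of 9 tested genes had an adjusted p under 0.05 (edgeR), against 78.0% of all genes tested, so this count lies close to the background. The highest occasion exceeded the lowest by 2.66-fold for Nrg1 (41.7 CPM on occasion 2, 22.1 on occasion 1 and 15.7 on occasion 3) and by 2.65-fold for Btc (53.7 CPM on occasion 3, 23.0 on occasion 2 and 20.2 on occasion 1). It was 2.20-fold for Epgn, 1.74-fold for Erbb3, 1.62-fold for Egfr, 1.52-fold for Hbegf, 1.49-fold for Areg, 1.33-fold for Tgfa and 1.16-fold for Erbb2. For each of these 9 genes this ratio, which takes the extremes of 3 occasions, was larger than the fold between acLDL-high and acLDL-low cells. Areg, Hbegf, Tgfa, Btc, Egfr and Erbb3 were highest on occasion 3, whereas Nrg1 and Erbb2 were highest on occasion 2 and Epgn on occasion 1.

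**Figure D4:**
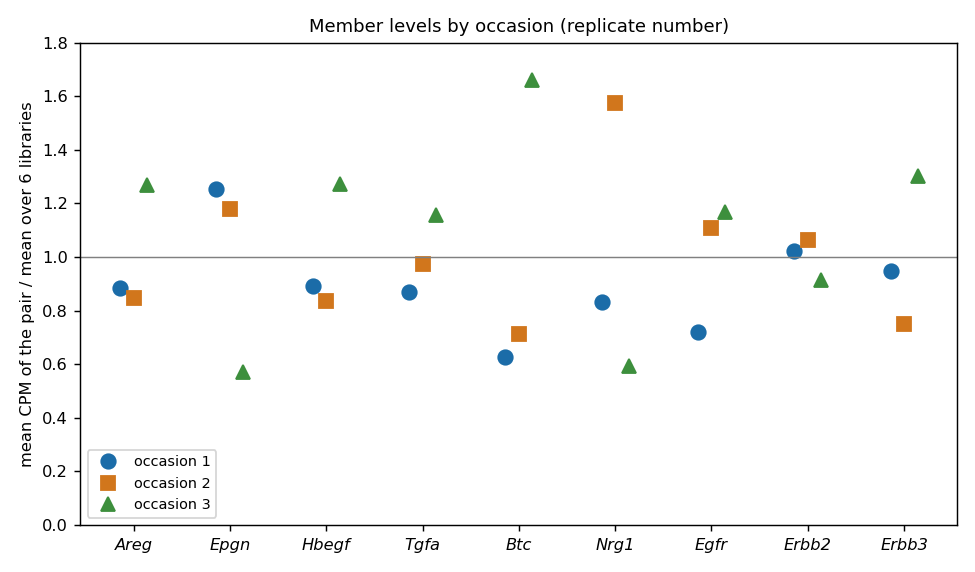
Mean CPM of the 2 libraries of each occasion divided by the gene's mean over the 6 libraries. Occasion 3 (triangles) is the highest for Btc, Erbb3, Areg and Hbegf and the lowest for Epgn and Nrg1, and Erbb2 varies least.

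Over the 6 libraries, Areg and Hbegf had a Pearson correlation of log2 CPM of 0.98, Hbegf and Btc of 0.94, Erbb2 and Erbb3 of -0.97, and Nrg1 and Erbb3 of -0.91. These are descriptions over 6 points that share 3 occasions, a library depth scaling and the sort. Among 10537 genes with an average log2 CPM of at least 1, the patterns closest to that of Btc, the ligand with the smallest p, included those of Rai14, Aasdhppt, Prss22 and Nyap1, with correlations from 0.992 to 0.998 over 6 libraries. For Erbb3, the receptor with the smallest p, they included those of Cyb561a3, Gpatch2l, Ano10 and Rnf5, from 0.995 to 0.998. As many as 206 genes for Btc and 325 for Erbb3 had a correlation above 0.95, and none of the 8 genes named here had an adjusted p under 0.05 between the populations.

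The other family genes were low or undetected. Nrg3 and Erbb4, the fourth receptor, had 0 counts in all 6 libraries, so that of the neuregulin receptors Erbb3 and its partner Erbb2 were detected. Nrg2, at 2.54 ± 0.155 and 2.55 ± 0.675 CPM (SD, n = 3), was the highest of the rest, and the fitted log2 difference was -0.01 ± 0.14 (SE; edgeR adjusted p = 0.976). Egf, at a fitted log2 difference of -0.36 ± 0.25 (SE; edgeR adjusted p = 0.467), averaged below 1 CPM over the 6 libraries. Nrg4 also averaged below 1 CPM, with 0 to 17 counts per library and a difference of 1.84 ± 0.74 (adjusted p = 0.195).

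Among the pathway genes around the receptors, ligand release held 1 call, the transducers and restraint genes none and the ERK-induced genes 7. Over all genes tested 4.75% were called, so the counts for ligand release, transducers and restraint lie close to the background. Of 10 genes of ligand release, 9 were tested and 1 passed the test. All 9 had a log2 fold change above 0, against 50.6% of all genes tested, with a median of 0.12. The gene that passed was Adam8, a metalloprotease of the ADAM family, at 161 ± 38.7 CPM in acLDL-low and 190 ± 46.7 CPM in acLDL-high cells (SD, n = 3). It was higher in 3 of 3 pairs (fitted log2 difference 0.23 ± 0.04, SE; edgeR adjusted p = 0.00900). Without replicate 3 its adjusted p was 0.0674, in a range from 0.000207 to 1 over 9 alternatives. Adam17, the main sheddase of amphiregulin and TGF-alpha, and Adam10, that of betacellulin, had log2 fold changes of 0.16 and 0.12 with adjusted p of 0.138 and 0.144. They are named after their values were seen.

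Of 30 adaptor and effector genes, from Grb2 and Sos1 to the RAS, RAF, MEK, ERK, PI3K and AKT genes, all were tested and none passed, with a median log2 fold change of 0.0089 and a range from -0.07 to 0.15. Akt1, the most abundant, was at 749 ± 140 and 736 ± 125 CPM (SD, n = 3). Of 21 genes that restrain or degrade the receptors, 20 were tested and none passed, with a median of 0.0070. The most abundant was Errfi1, which encodes the EGFR inhibitor MIG6 and is itself induced by EGFR signalling, at 711 ± 97.8 CPM in acLDL-low and 841 ± 32.9 CPM in acLDL-high cells. The fitted log2 difference was 0.25 ± 0.07 (SE; edgeR adjusted p = 0.0515), and the 3 pairs gave 0.37, -0.01 and 0.39. The adjusted p of Errfi1 was 3.43e-10 without replicate 2 and ran up to 1 over 9 alternatives.

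Of 27 genes that growth factors induce through ERK, all were tested, and 6 passed as higher and 1 as lower in acLDL-high cells. Over all genes tested these shares were 3.43% and 1.32%. The log2 fold change was above 0 for 18 of the 27 genes, against 50.6% of all genes tested, and the list median was 0.09. Egr3, Fos and Ier3, immediate early genes with the largest called rises of the list, had log2 fold changes of 0.46, 0.39 and 0.31 (adjusted p = 0.00464, 0.0223 and 0.00399 from edgeR). The other listed Egr, Fos, Jun and Ier genes went both ways. Fosb, Junb, Fosl1 and Egr2 were at 0.25, 0.25, 0.19 and 0.16, of which only Junb passed. Egr1, Jun and Ier2 were at -0.16, -0.06 and -0.06 without a call, and Egr1 was lower in each pair. Phlda1 and Dusp5 also passed as higher, at 0.31 and 0.22 (adjusted p = 0.00809 and 0.0418 from edgeR). No other listed Dusp, Spry, Spred or Etv gene passed. Spry4, Spred3, Etv4 and Etv5 were at -0.15, -0.10, -0.04 and -0.02, and the others of these groups were above 0. These genes are named after their values were seen. Myc, a growth-promoting transcription factor, fell from 455 ± 113 to 359 ± 74.4 CPM (SD, n = 3), in 3 of 3 pairs (fitted log2 difference -0.33 ± 0.05, SE; edgeR adjusted p = 0.00115). Within pairs 1, 2 and 3, Fos differed by 0.60, 0.02 and 0.56 and Egr3 by 0.67, 0.15 and 0.53 on the log2 scale, and the list medians were 0.16, -0.06 and 0.13. Pair 2 also gave the smallest difference for Ier3 (0.18), Errfi1, Areg, Hbegf and Btc. It did not for Myc, whose pairs 1, 2 and 3 differed by -0.38, -0.38 and -0.24. A link between these genes and the ligands was not tested. Without replicate 3, Egr3, Fos and Ier3 had adjusted p of 0.128, 0.273 and 0.0722, within ranges of 2.96e-18, 1.92e-22 and 6.45e-10 up to 1 over 9 alternatives. DESeq2 gave Fos an adjusted p of 0.310.

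Cell cycle genes also moved with uptake, where over all genes tested 3.43% were called as higher and 1.32% as lower. Of 15 G2/M genes, 11 passed the test as higher in acLDL-high cells and none as lower, with a median log2 fold change of 0.33, led by Ube2c (0.56), Ccnb1 (0.49) and Top2a (0.45), whose adjusted p lay between 0.000119 and 0.000212 (edgeR). Their summed level ranged from 2543 to 3118 CPM in acLDL-low and from 3184 to 4012 CPM in acLDL-high libraries, and their medians in the 3 pairs were 0.17, 0.45 and 0.29, largest in the pair in which the EGFR ligands differed least. Of 9 tested epithelial markers, Cldn4 (0.53, adjusted p = 0.000832) and Cldn7 (0.30, adjusted p = 0.0102), tight junction proteins, rose and none fell, though without replicate 3 Cldn7 had an adjusted p of 0.0659 (edgeR). The part of cell cycle stage or epithelial state in the ligand values was not tested.

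**Figure D5:**
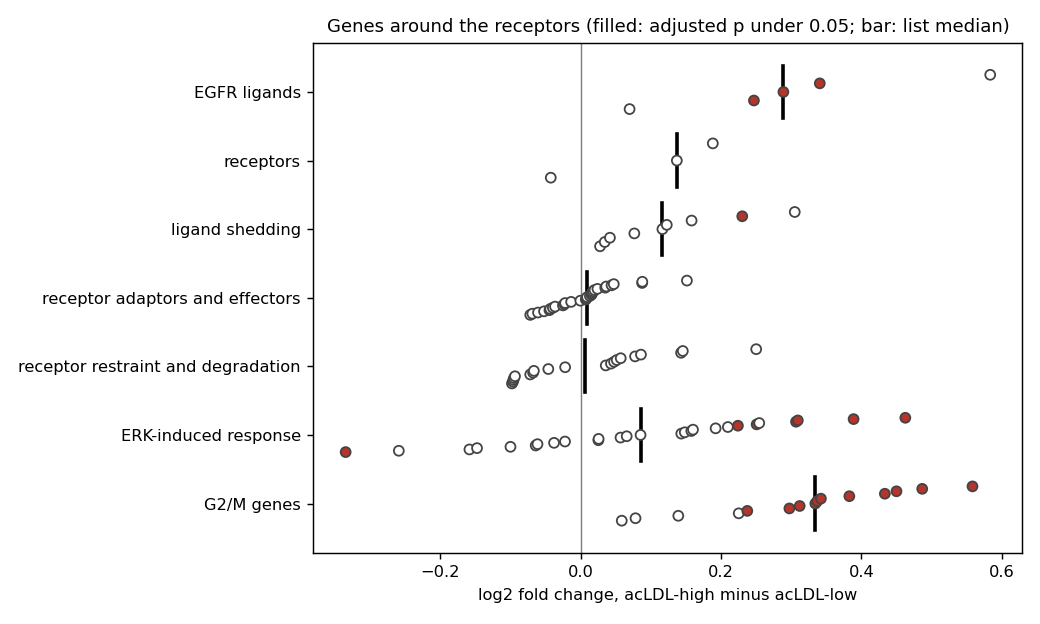
Log2 fold change of each tested gene in the lists around the receptors, 1 point per gene, filled where the adjusted p is under 0.05, with a bar at each list's median. The adaptors and restraint genes centre on 0 with no filled point, whereas 3 of 5 EGFR ligands, 7 of 27 ERK-induced genes and 11 of 15 G2/M genes are filled. Over all genes tested 4.75% had an adjusted p under 0.05.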

How the data were processed

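Raw counts per gene were deposited by the authors for 3 acLDL-low and 3 acLDL-high libraries. Stranded polyA libraries were sequenced as paired-end reads, aligned to mm10 with STAR and counted with featureCounts (versions 2.5.2a and 1.4.3-p1 in the submitters' processing notes), and the annotation release and strand setting are not given in the sources used here. The deposited table of the authors' own DESeq2 comparison holds mean counts, fold changes and p-values, of which none was used, and gave only the gene symbols and the protein-coding gene IDs. All 15973 of these IDs were found in GENCODE M21 on GRCm38, from which positions and exon lengths were taken.

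Counts were analysed with edgeR (version 4.0.16, R 4.3.3) after filterByExpr and TMM scaling, by the quasi-likelihood test blocked on the replicate number, as the study's methods include replicate information. P-values were adjusted by Benjamini-Hochberg over 12572 genes, with a threshold of 0.05. The series' design states that the experiment was repeated on separate occasions, and libraries of the same number deviated from their population means together (correlations of 0.795, 0.846 and 0.799 across genes, against -0.557 to -0.0882 for different numbers). P-values set the difference between the populations against its variation among the 3 pairs, with each gene's variance moderated towards that of the other genes. The standard errors and 95% intervals rest on the same moderated variance. They therefore do not measure the spread of a gene's own 3 pairs alone. Standard errors (SE) were derived as the fitted log2 difference over the root of F, and 95% intervals use the t quantile of the fit. Differences within pairs used log2 CPM (prior count 2). Library totals of 70263372 to 94216786 counts leave precision to the 3 pairs, except near the floor of 3 counts.

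The members and the gene lists were chosen with earlier results of these data known. Named genes are the 10 members, up to 3 rises and 3 falls per list among called genes or else the most abundant, and the 5 closest patterns to 1 ligand and 1 receptor, of which some are not reported here. The fit was also run on simulated counts whose changes were larger than those of the tested members. That run does not show how reliable calls of the members' size are or how they depend on single pairs. Alternatives were a fit without the block, DESeq2 size factors, DESeq2 (version 1.42.0), other filters on low counts (none, or a minimum of 10 counts per library), all gene IDs, leaving out each pair, and the longest transcript as length. Promoter sequences are RefSeq's (GRCm38.p6).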

Additional observations from a re-analysis of the deposited data

How the results depend on the processing

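The count of genes called between the populations was 597, with 3 family genes among them. Without the replicate block it was 0 genes and 0 family genes (45 genes at an unadjusted p under 0.05 in edgeR, and 468 called by DESeq2 with the replicate in its design). Under that DESeq2 fit 1 family gene, Btc, was called. Without the filter on low counts 932 genes were called, and Areg, Hbegf and Btc were among them. Leaving out one pair gave from 126 genes (without replicate 3) to 869 (without replicate 2), and from 0 family genes (without replicate 1 or without replicate 3) to 4 (without replicate 2, where Tgfa was added). With at least 10 counts in every library Areg had an adjusted p of 0.0503 and was not called. The cause of these changes was not tested. None of the 9 tested members changed the sign of its log2 fold change under the 9 alternatives. Among other named genes with no call, Nrg2 changed sign to 0.011 without the replicate block. Leaving out one pair gave from -0.18 (without replicate 1) to 0.088 (without replicate 3) for Nrg2, from -0.071 (without replicate 1) to 0.0096 (without replicate 3) for Akt1 and from -0.15 (without replicate 1) to 0.29 (without replicate 2) for Tie1. The count of genes that differed between occasions was 9802 and lay between 8674 and 11013 under 5 alternatives, with 9 family genes among them, or 8 by DESeq2. Depth limits the statements on Ereg, Epgn, Egf, Nrg4 and the markers of other cell types near 0 counts.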
